A study of Mus musculus with 12 samples.

Results

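The genes described here are 35 genes of the brain vasculature, chosen by symbol: 26 of blood-brain barrier endothelium, 6 of pericytes and 3 of smooth muscle. All 35 were found by Ensembl ID among the 37991 genes counted, and all 35 passed the filter on low counts that left 16399 genes for testing. The libraries are poly(A) RNA-seq of whole hippocampus from C57BL/6N mice aged 6 to 7 months, 6 labelled Wildtype and 6 labelled Gadd45a-KO, the latter from Gadd45a-/- mice. The mice were siblings from crosses of heterozygotes carrying a constitutive deletion, so no cell type was targeted, and every animal of both groups was killed 1 h after the passive avoidance (PA) test, a foot-shock memory task. No library came from untrained mice, and each library stands for 1 mouse, so n = 6 per label throughout.

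Brain capillaries are tubes of endothelial cells sealed to each other by tight junctions and wrapped by pericytes, while arterioles carry a coat of contractile smooth muscle. The endothelium forms the blood-brain barrier: it blocks leakage between cells and moves glucose, lactate and lipids into the tissue through dedicated carriers. Pericytes and smooth muscle together are called mural cells. All of these cells are a minority in hippocampal tissue, so their genes are read against a large background of neuronal and glial RNA.

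None of the 35 vascular genes passed 1% FDR between the labels in edgeR's quasi-likelihood test, in either direction. Most nonetheless lay slightly higher in the libraries labelled Gadd45a-KO: 31 of 35 log2 fold changes were positive, against 51.8% of all genes tested, and their median was 0.12, a difference of 8.50%, against 0.00 for all genes tested. By cell class the median log2 fold change was 0.12 for the endothelial, 0.10 for the pericyte and 0.26 for the smooth muscle genes. Several marker lists of other cells leaned up as well. Positive values were 7 of 7 for microglia, 6 of 7 for astrocytes, 6 of 6 for oligodendrocytes and 4 of 5 for neurons. Their median log2 fold changes were 0.07, 0.08, 0.45 and 0.06, in that order. Thalamic markers had 6 of 6 positive and choroid plexus markers 7 of 9. Blood markers, with 0 of 5 positive, and hippocampal neuron markers, with 2 of 6, did not. A lean in sign was thus not confined to vascular genes, although the microglia, astrocyte and neuron medians were smaller than the vascular genes' 0.12. Fewer vascular cells and less RNA per vascular cell cannot be told apart in bulk tissue, nor can more of either.

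The background of the same comparison ran the other way. At 1% FDR 2.62% of all tested genes were called lower and 0.0244% higher in edgeR, and DESeq2 called 4.13% lower and 0.124% higher. DESeq2 called 0 of the 35 vascular genes too. At an unadjusted p under 0.05, 9 vascular genes were higher and 0 lower in edgeR, where 4.34% of all genes were higher and 9.35% lower. DESeq2 also had 9 of them higher at that level, where 3.33% of the 25852 genes it fitted were higher. In no vascular gene did the 6 values of one label stand clear of the 6 of the other, a separation that 0.183% of all genes showed upwards and 3.12% downwards.

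Some facts of the libraries bear on these values. Each held between 44594261 and 55540601 reads assigned to genes. Reads per Gadd45a went against the labels, at 2.19 to 3.43 CPM (reads per 1000000 gene reads) in the libraries labelled Wildtype and 20.5 to 23.1 CPM in those labelled Gadd45a-KO, and the deletion replaces exons that a count per gene does not separate from those left in place. Groups are therefore named by their labels. Gadd45a-KO replicates 2 and 3 stood apart in thalamic markers, whose 6 genes summed to 231.6 and 340.4 CPM there and to 56.8 to 95.1 CPM in the other 10 libraries. Markers of hippocampal neurons summed to 751 to 943 CPM over all libraries, so the labelled tissue was present in each.

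Levels were compared between genes as RPKM, which is CPM per kilobase of exon. Bsg was the highest at 155 RPKM. It encodes basigin, a partner protein of lactate carriers that many cell types make, so its level here is not one of endothelium alone. Next came the pericyte gene Vtn at 26.2 RPKM, which encodes the matrix protein vitronectin, then the endothelial genes Itm2a at 25.3 and Slc2a1 at 24.96, and the pericyte gene Rgs5, a regulator of G protein signalling, at 23.1 RPKM. Each of these 4 differed from its neighbour in the order by less than the spread of Vtn between Wildtype libraries (coefficient of variation, CV, 13.3%). At the foot of the order stood Icam2 at 1.00, Emcn at 1.14, Erg at 1.31 and Abcc9 at 1.32 RPKM. Even Icam2 had at least 66 reads in every library, so all members were measured, although counting error alone gives it a CV of 10.3%.

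**Figure D1:**
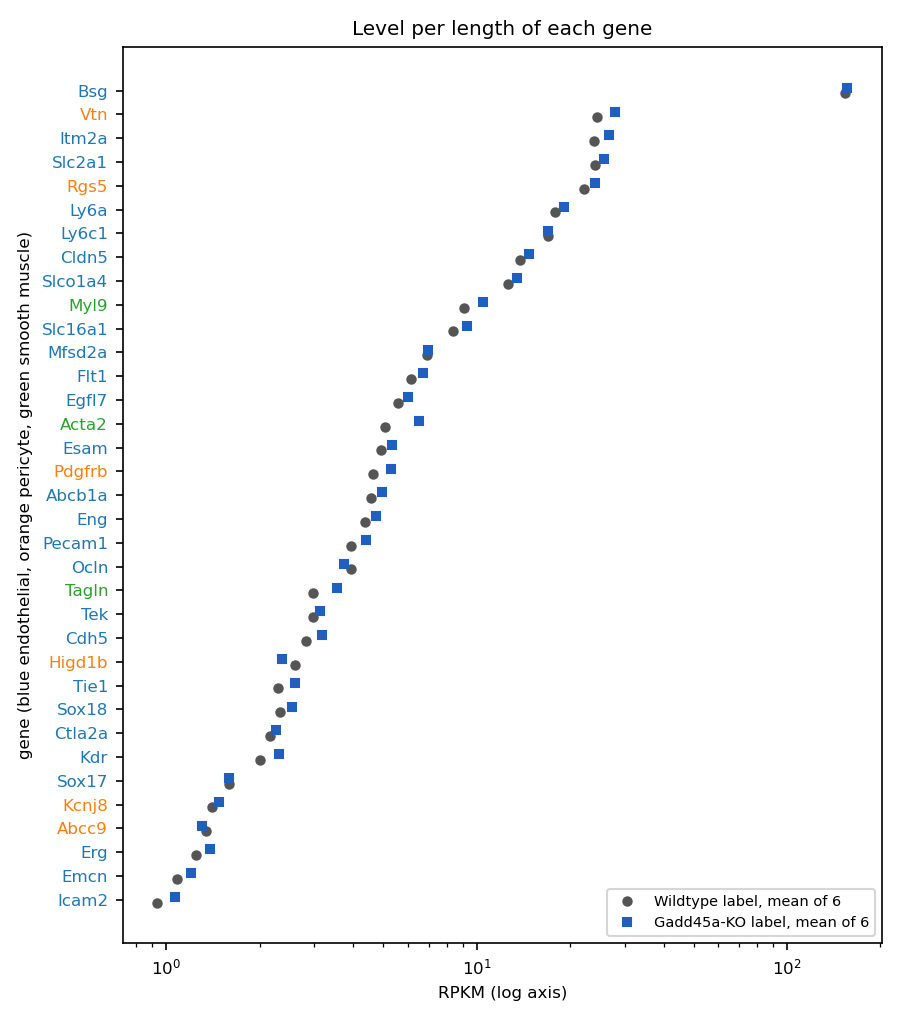
Mean level of each of the 35 genes in RPKM on a log axis, ordered by the mean over 12 libraries, with grey circles for the 6 libraries labelled Wildtype and blue squares for the 6 labelled Gadd45a-KO. Bsg stands alone at 155 RPKM, the other genes run from 26.2 down to 1.00 RPKM, and the markers of the 2 labels lie close together for every gene.

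Junction and cell contact genes came first among the endothelial members. Cldn5 (chr16:18776940-18778353, NCBIM37), the main claudin of the barrier's tight junctions, lay between 13.7 and 24.6 CPM in Wildtype libraries with a median of 19.2, and between 18.1 and 23.4 CPM with a median of 20.8 in Gadd45a-KO libraries. The Gadd45a-KO range fell wholly inside that of Wildtype. Its log2 fold change was 0.10 (SE 0.12, edgeR adjusted p = 0.825), with a 95% interval from -0.17 to 0.37. Single libraries moved it: it was 0.02 without Wildtype replicate 3 and 0.19 without Wildtype replicate 1. Ocln, which encodes the tight junction protein occludin, went slightly the other way, from a median of 16.8 CPM (13.4 to 20.2) to 16.3 CPM (12.4 to 17.9), with a log2 fold change of -0.07 (SE 0.10).

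The adherens junction gene Cdh5 (chr8:106625525-106668402), whose product VE-cadherin holds endothelial cells together, ran from 9.13 to 12.6 CPM with a median of 11.6 in Wildtype libraries and from 12.1 to 13.6 CPM with a median of 12.6 in Gadd45a-KO libraries. Every Gadd45a-KO value lay above the Wildtype mean and 3 lay above all Wildtype values. The log2 fold change was 0.18 (SE 0.07) and the adjusted p 0.261 in edgeR. Esam, an endothelial adhesion molecule, had the tightest values of all members among the Gadd45a-KO libraries, 15.0 to 15.6 CPM with a CV of 1.77%, against 12.4 to 15.2 CPM in Wildtype, for a log2 fold change of 0.12 (SE 0.05, adjusted p = 0.259). The adhesion genes Pecam1 and Icam2 had log2 fold changes of 0.15 (SE 0.09) and 0.19 (SE 0.14), with overlapping ranges and no unadjusted p under 0.05. Thus 5 of the 6 junction genes leaned up, by amounts that did not pass the test.

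The barrier's transporters carry nutrients in and drugs out. Slc2a1 (chr4:118781316-118809935), the glucose carrier of the barrier, lay between 63.0 and 77.1 CPM with a median of 69.0 in Wildtype libraries and between 64.2 and 84.9 CPM with a median of 71.9 in Gadd45a-KO libraries. The 2 ranges started at nearly the same value, and the log2 fold change was 0.10 (SE 0.07, adjusted p = 0.620). Slc16a1, a lactate and ketone body carrier, had medians of 35.1 and 43.0 CPM and a log2 fold change of 0.14 (SE 0.09), and its Gadd45a-KO values spanned nearly the whole Wildtype range, from 33.6 to 45.4 CPM. For Mfsd2a, the carrier of omega-3 lysolipids that also restrains transcytosis, the medians were 15.4 and 15.6 CPM. Its log2 fold change was 0.01 (SE 0.05) and its 95% interval, from -0.09 to 0.12, was among the narrowest of the class.

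Slco1a4, an organic anion carrier, and Abcb1a, the drug efflux pump P-glycoprotein, had log2 fold changes of 0.10 (SE 0.07) and 0.12 (SE 0.08). Reads of Abcb1a that also align to its close paralog Abcb1b could have been dropped, so its count is uncertain to that extent. Bsg was the most precisely measured member, with 11872 to 15165 reads per library, medians of 265.8 and 277.0 CPM and a log2 fold change of 0.03 (SE 0.03), inside an interval from -0.04 to 0.10. No transporter reached an unadjusted p under 0.05 by either tool.

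Receptors for vascular growth factors followed the junction genes. Flt1 (chr5:148373180-148537587), a receptor for vascular endothelial growth factor (VEGF), ran from 61.3 to 83.6 CPM (median 70.7) in Wildtype libraries and from 73.2 to 83.5 CPM (median 78.3) in Gadd45a-KO libraries. All 6 Gadd45a-KO values were above the Wildtype mean but none above the Wildtype maximum, and the log2 fold change was 0.12 (SE 0.07). Kdr, the main signalling receptor for VEGF, had medians of 14.3 and 16.3 CPM, with Gadd45a-KO replicate 2 the highest at 19.6 CPM, and a log2 fold change of 0.20 (SE 0.09, adjusted p = 0.326). Of the genes in this group it had the largest difference, with Tie1 next to it.

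Tie1 (chr4:118143796-118162666), an orphan receptor that modulates angiopoietin signalling, came nearest to a clean separation. Its 6 Wildtype values were 11.7, 11.97, 8.56, 11.6, 10.9 and 12.5 CPM and its 6 Gadd45a-KO values were 12.03, 12.8, 12.9, 13.3, 12.6 and 13.3 CPM, in order of replicate number. Of the Gadd45a-KO libraries, 5 exceeded every Wildtype value, and the lowest Wildtype value by far was that of replicate 3. The log2 fold change was 0.19 (SE 0.08) with an adjusted p of 0.243 in edgeR. Without Wildtype replicate 3 it was 0.13.

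The angiopoietin receptor Tek, partner of Tie1, did not follow it in size, with a median of 15.2 CPM (10.7 to 16.1) in Wildtype and 14.8 CPM (13.1 to 15.8) in Gadd45a-KO libraries and a log2 fold change of 0.08 (SE 0.10). Here too Wildtype replicate 3 was the lowest of all 12, and without it the value was 0.02. Eng, a co-receptor for ligands of the TGF-beta family, had medians of 16.7 and 18.4 CPM and a log2 fold change of 0.12 (SE 0.06, adjusted p = 0.418). It shares 124 exonic bases on its own strand with Ak1, where reads would be ambiguous.

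Transcription factors of endothelial identity were low and varied in their precision. Sox17 did not differ on average, with means of 5.01 CPM under both labels and a log2 fold change of -0.00 (SE 0.09). Its sign flipped with most other processing choices. Sox18 was the noisiest endothelial member, with 2.83 to 5.65 CPM in Wildtype libraries (CV 27.0%) and 3.47 to 5.41 CPM in Gadd45a-KO libraries (CV 18.0%), so that its interval ran from -0.20 to 0.48. Its log2 fold change of 0.14 became 0.30 without Wildtype replicate 1 and 0.05 without Gadd45a-KO replicate 4. Erg, an ETS family factor that maintains endothelial genes, had medians of 4.33 and 4.82 CPM and a log2 fold change of 0.15 (SE 0.07, adjusted p = 0.399).

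Surface and secreted endothelial genes closed this class. Itm2a (chrX:104592438-104598715), a membrane protein abundant in brain endothelium, ran from 35.2 to 44.8 CPM (median 43.0) in Wildtype libraries and from 43.3 to 50.4 CPM (median 46.3) in Gadd45a-KO libraries. Its Gadd45a-KO values all lay above the Wildtype mean, 4 of them above every Wildtype value, and the log2 fold change was 0.16 (SE 0.06, adjusted p = 0.190). Egfl7, a secreted protein of growing vessels, had medians of 20.1 and 21.6 CPM and a log2 fold change of 0.11 (SE 0.05). Part of its exonic sequence is shared on the same strand with Mir126, which lies inside it, and with Gm20532.

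The sialomucin gene Emcn had a log2 fold change of 0.15 (SE 0.08), with medians of 5.88 and 6.25 CPM. Ly6a and Ly6c1, surface antigens whose genes lie 47.4 kb apart on chromosome 15, had log2 fold changes of 0.09 (SE 0.08) and 0.01 (SE 0.08), and Ctla2a, a cathepsin inhibitor, 0.06 (SE 0.10). Close paralogs exist for Ly6c1 (Ly6c2) and Ctla2a (Ctla2b), so the counting could have dropped reads that align to both. In all, 24 of the 26 endothelial genes had positive differences and 5 an unadjusted p under 0.05: Cdh5, Esam, Kdr, Tie1 and Itm2a.

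**Figure D2:**
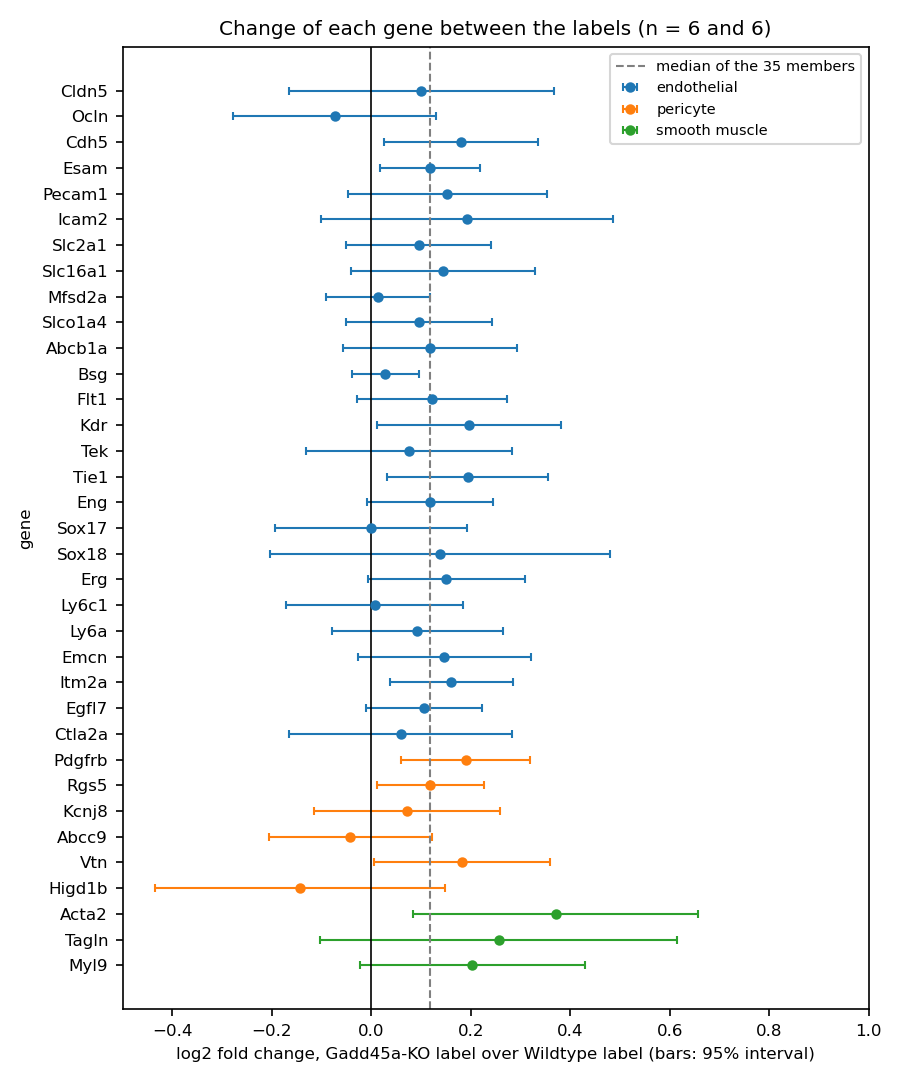
Log2 fold change of each of the 35 genes, label Gadd45a-KO over Wildtype (n = 6 and 6), with bars for the 95% interval from edgeR, coloured by cell class, and a dashed line at the members' median of 0.12. Most points lie right of 0, 9 intervals exclude 0, and the smooth muscle genes at the foot have the largest values and wide bars.

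Pericyte genes were split in direction. Pdgfrb, the receptor through which endothelial PDGF-B recruits pericytes, had the smallest adjusted p of all 35 genes. Its Wildtype values ran from 22.6 to 29.0 CPM with a median of 25.1 and its Gadd45a-KO values from 27.0 to 30.3 CPM with a median of 29.6. All Gadd45a-KO values were above the Wildtype mean and 4 above every Wildtype value, for a log2 fold change of 0.19 (SE 0.06, edgeR adjusted p = 0.119). In DESeq2 the adjusted p was 0.0475, still above 1%.

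Rgs5 (chr1:171585632-171625944) ran from 86.1 to 108.6 CPM (median 101.8) in Wildtype libraries and from 103.5 to 114.8 CPM (median 110.3) in Gadd45a-KO libraries. Wildtype replicate 1 alone was under 100.5 CPM, and the log2 fold change was 0.12 (SE 0.05, adjusted p = 0.298). Vtn had medians of 50.9 and 56.6 CPM, with ranges of 38.7 to 58.0 and 50.2 to 64.5, and a log2 fold change of 0.18 (SE 0.08, adjusted p = 0.345). These were the 3 pericyte genes with an unadjusted p under 0.05.

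The other three pericyte genes showed little. Kcnj8 and Abcc9, which encode the pore and the regulatory subunit of the ATP-sensitive potassium channel of mural cells and lie 16.5 kb apart on chromosome 6, had log2 fold changes of 0.07 (SE 0.09) and -0.04 (SE 0.08). Gadd45a is on the same chromosome, 75.5 Mb away from each. Higd1b, a mitochondrial protein gene used as a pericyte marker, had the most negative value of all members, -0.14 (SE 0.14, adjusted p = 0.750), from medians of 2.22 and 1.93 CPM with overlapping ranges. It was -0.04 without Wildtype replicate 4, its highest library, so its place in the order is not firm.

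**Figure D3:**
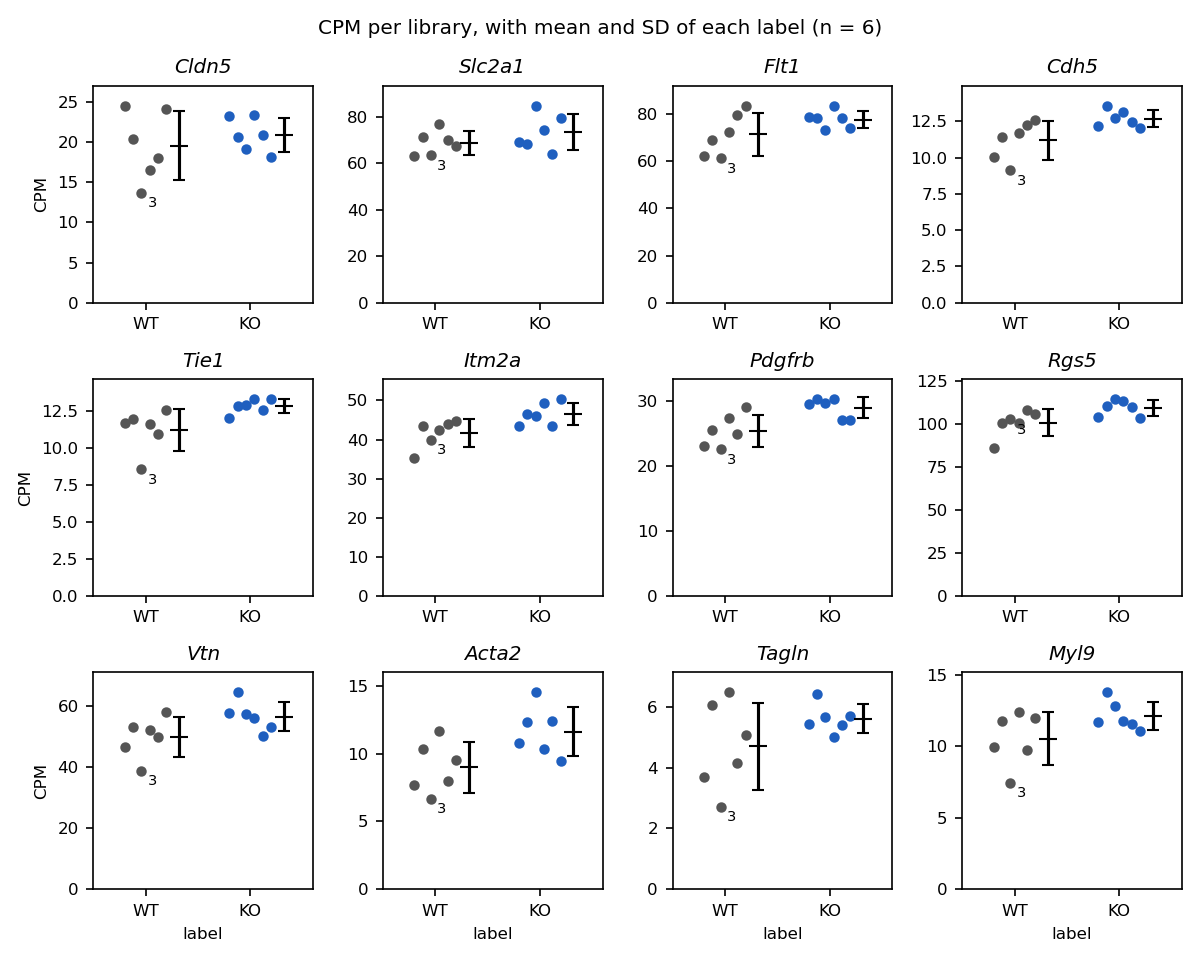
CPM in each library for 12 of the genes (y axes from 0, grey Wildtype, blue Gadd45a-KO, points left to right in order of replicate number), with bars for the mean and SD of 6 libraries and the digit 3 beside Wildtype replicate 3. The 2 labels overlap in every panel, and that library is the lowest point in every panel but those of Slc2a1, Itm2a and Rgs5.

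Smooth muscle genes had the largest differences, and Tagln had the widest spread of all members among Wildtype libraries. Acta2 (chr19:34315580-34329826), the smooth muscle actin, ran from 6.67 to 11.7 CPM (median 8.77) in Wildtype libraries and from 9.44 to 14.5 CPM (median 11.5) in Gadd45a-KO libraries. All Gadd45a-KO values exceeded the Wildtype mean and 3 exceeded every Wildtype value. The log2 fold change was 0.37 (SE 0.13, adjusted p = 0.191), the largest among the 35 genes, with an interval from 0.08 to 0.66.

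Tagln (chr9:45737711-45744141), an actin-binding protein of contractile cells, had 3.70, 6.08, 2.72, 6.49, 4.16 and 5.08 CPM in Wildtype libraries and 5.45, 6.44, 5.67, 5.02, 5.42 and 5.70 CPM in Gadd45a-KO libraries, in order of replicate number. The Gadd45a-KO values lay together inside the range of Wildtype, and the CV was 30.8% in Wildtype against 8.39% in Gadd45a-KO libraries. Its log2 fold change was 0.26 (SE 0.17, adjusted p = 0.575). Myl9 (chr2:156601156-156607394), a regulatory myosin light chain, had medians of 10.9 and 11.8 CPM and a log2 fold change of 0.20 (SE 0.11, adjusted p = 0.436).

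The size of these differences varied with Wildtype replicate 3. It was the lowest of 12 libraries in all 3 smooth muscle genes, and without it their median log2 fold change was 0.14 in place of 0.26. Tagln alone then had 0.14, Myl9 0.13 and Acta2 0.30, and Acta2 stayed between 0.30 and 0.47 whichever library was left out. The endothelial and pericyte medians without that library were 0.09 and 0.08.

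Precision allowed a bound on the size of any difference. All 35 of the 95% intervals lay within a 2-fold change, with bounds from 0.740-fold to 1.58-fold, and 33 lay within 0.5 on the log2 scale. In 12 genes all 6 Gadd45a-KO values exceeded the Wildtype mean, which 6.53% of all genes showed. A two-sided exact permutation test of single genes over the 924 splits of 6 against 6, unadjusted, gave a p under 0.05 for 8 of 35, all higher, the smallest being 0.00433 for Tie1, where 0.00216 is the smallest possible. Over all genes 4.08% were higher and 9.22% lower by that test.

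Libraries of one label also differed in vascular RNA among themselves. Wildtype replicate 3 had the lowest value of all 12 libraries in 18 of the 35 genes and Wildtype replicate 1 in 9. Together these libraries held the minimum in 27 members, 77.1%, whereas they held it in 17.7% of all genes tested. Wildtype replicate 1 was the top library in Cldn5 and Sox18, 5.71% of members, against 10.4% of all genes tested. Wildtype replicate 3 was the top library in no member, against 6.91% of all genes. At the other end, Gadd45a-KO replicate 2 was highest in 9 members, 25.7%, against 8.64% of all genes tested. Gadd45a-KO replicates 4 and 6 were highest in 6 members each, 17.1%, against 8.62% and 8.85% of all genes. Wildtype replicate 6 was highest in 5, 14.3%, near its 11.3% of all genes.

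In mean log2 CPM relative to each gene's own 12-library mean, Wildtype replicate 3 lay at -0.25 over the endothelial, -0.20 over the pericyte and -0.69 over the smooth muscle genes. Wildtype replicate 1 lay at -0.12, -0.15 and -0.33. The lowest Gadd45a-KO values were 0.01 over the endothelial, -0.03 over the pericyte and 0.02 over the smooth muscle genes. The 3 classes were thus all low in these Wildtype libraries, and the smooth muscle genes were low in Wildtype replicate 5 as well, at -0.27, where the endothelial genes lay at -0.00 and the pericyte genes at 0.02.

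**Figure D4:**
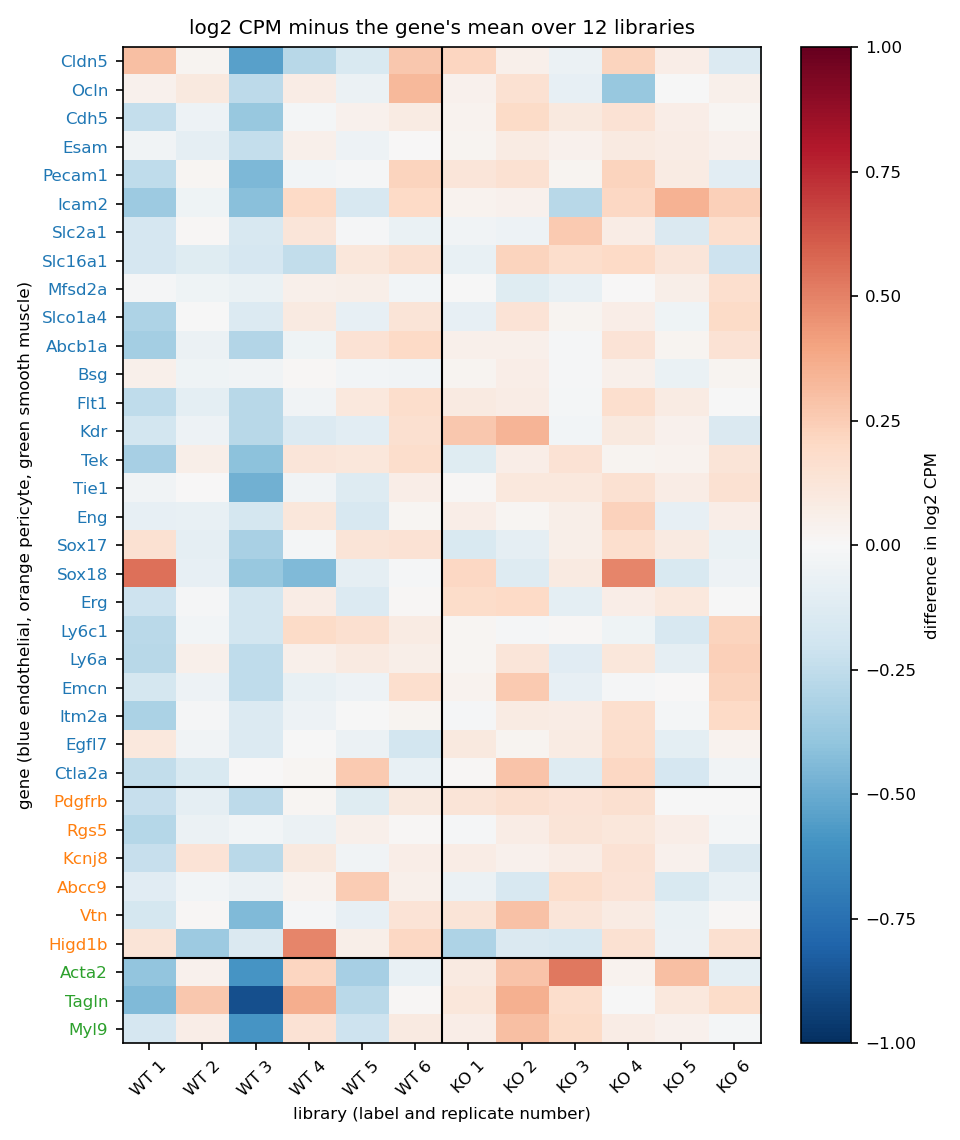
Difference of log2 CPM from each gene's mean over 12 libraries (colour, blue lower and red higher) for the 35 genes in rows, by cell class, and the 12 libraries in columns, Wildtype left of the line. The column of Wildtype replicate 3 is blue in most rows and darkest in Tagln, while the Gadd45a-KO columns are paler and mostly faint red.

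Spread between libraries of a label was wider for the vascular genes under the Wildtype label. The CV was larger among Wildtype than among Gadd45a-KO libraries in 29 of 35 members, with medians of 11.9% and 8.17%, while over all tested genes the medians were 7.602% and 7.96% and Wildtype had the larger CV in 46.5%. Leaving out Wildtype replicate 3 gave a Wildtype median of 9.87% and a count of 25, leaving out replicate 1 gave 11.4% and 23, and leaving out both, a choice made after seeing the data, gave 7.96% and 13. For most members these CVs exceeded counting error, which was 3.16% for Cldn5 and 4.41% for Acta2.

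Some markers of cells that lie beside vessels were also lowest in Wildtype replicate 3. The 10 fibroblast markers, all of them detected and tested, summed to 37.3 to 106.7 CPM in Wildtype and 60.1 to 108.6 CPM in Gadd45a-KO libraries, and in Wildtype replicate 3 they lay at -1.13 on the log2 scale. The 6 perivascular macrophage markers, also all tested, summed to 1.80 to 5.19 and 3.32 to 6.46 CPM and lay at -0.95 in that library. Neuronal markers lay at 0.12 there. Astrocyte markers, at -0.15, and microglia markers, at -0.08, were also at their lowest of the 12 libraries there, by smaller amounts. In other libraries the fibroblast and macrophage markers parted from the vascular genes. In Gadd45a-KO replicates 4 and 6 fibroblast markers lay at -0.23 and -0.33 and macrophage markers at -0.38 and -0.30. Endothelial genes lay at 0.12 and 0.06 there. Between the labels, 9 of 10 fibroblast markers had a positive difference, with a median log2 fold change of 0.41. Of the 6 perivascular macrophage markers 5 were positive, with a median of 0.38. Of the 5 blood markers tested 0 had a positive difference, with a median log2 fold change of -0.26. None of these lists held a gene past 1% FDR between the labels, and their part in the vascular values was not tested.

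**Figure D5:**
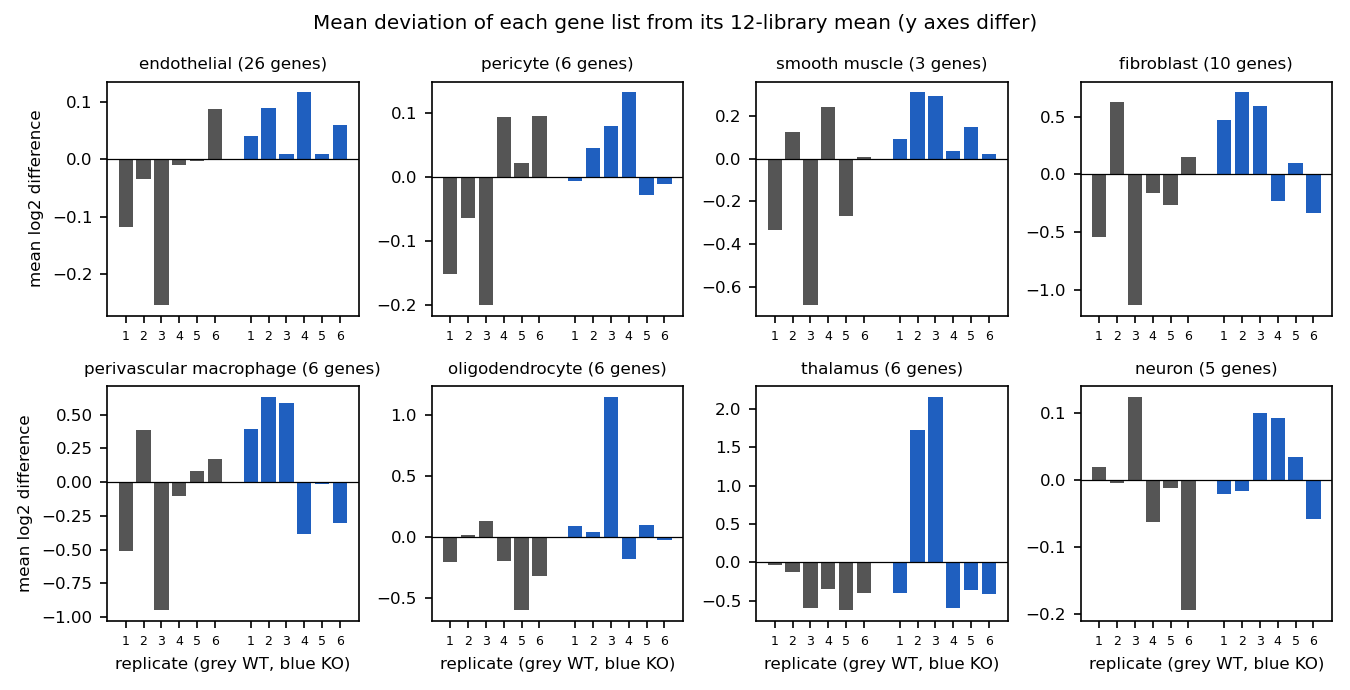
Mean difference of log2 CPM from the 12-library mean, in each library, for the 3 vascular classes and 5 marker lists of other cells (grey Wildtype, blue Gadd45a-KO, y axes differ). Wildtype replicate 3 is the lowest bar for the 3 vascular classes, fibroblasts and perivascular macrophages, and Gadd45a-KO replicates 2 and 3 tower in the thalamic panel at up to 2.16.

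Gadd45a-KO replicates 2 and 3 were left out as a check, and the vascular genes had about the same fold change without them. The 6 oligodendrocyte markers, all tested, summed to 7057 CPM in Gadd45a-KO replicate 3 and 2224 to 3607 CPM in the other libraries, and the median log2 fold change between labels was 0.45 for oligodendrocyte and 1.02 for thalamic markers. Without Gadd45a-KO replicates 2 and 3, a choice made after seeing the data, the vascular genes had a median log2 fold change of 0.13 and 32 positive values. Their number with an unadjusted p under 0.05 fell from 9 to 2, or from 25.7% to 5.71%, with 4 libraries left under that label, while the share of all genes higher at that level fell from 4.34% to 1.47%. The smallest adjusted p among them was 0.414. The same count was 17 without Wildtype replicate 6, where 4.85% of all genes were higher at that level, and 7 to 12 without any other single library, where 3.12% to 6.63% of all genes were.

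Vessel genes outside the members were taken as further lists. Of 45 other endothelial genes 44 were tested and 36 had positive differences, with a median log2 fold change of 0.12. None passed 1% FDR in edgeR or DESeq2, and 13 were higher and 0 lower at an unadjusted p under 0.05 in edgeR. The lowest p values belonged to the transcription factors Ets1, at 0.21 (SE 0.07, adjusted p = 0.105), and Sox7, at 0.31 (SE 0.10, adjusted p = 0.116), and to Apold1, an endothelial regulator of vessel responses, at 0.29 (SE 0.10, adjusted p = 0.172). The median of this list was thus close to that of the members.

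Of 22 other mural genes 21 had positive differences, with a median log2 fold change of 0.21. None passed 1% FDR by either tool, while 6 were higher and 1, the phosphodiesterase gene Pde5a, lower at an unadjusted p under 0.05 in edgeR. Mylk, the myosin light chain kinase of smooth muscle, went from a median of 23.4 CPM (20.6 to 27.3) to 27.5 CPM (24.9 to 28.8), for a log2 fold change of 0.21 (SE 0.06, adjusted p = 0.0987). Lmod1, an actin nucleator of smooth muscle, had 0.64 (SE 0.21) from means of 0.721 and 1.12 CPM, and Notch3, the mural receptor for endothelial Jagged signals, 0.20 (SE 0.07).

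Ligands for the vascular receptors had a median near that of all genes. The 13 ligand genes had a median log2 fold change of 0.01, with 8 positive, and 0 passed 1% FDR by either tool. At an unadjusted p under 0.05 there were 0 in edgeR and 1, Angpt1, in DESeq2. Lowest in p was Angpt1, the activating ligand of Tek, from a median of 5.84 CPM (4.77 to 6.89) to 6.78 CPM (5.89 to 7.58), for a log2 fold change of 0.21 (SE 0.10, adjusted p = 0.375). Angpt2 and Tgfb2 followed at 0.39 (SE 0.24) and 0.13 (SE 0.08). Whether ligands and members differ from each other was not tested.

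Promoter sequence gave one feature that the choice of genes did not use. RefSeq's promoter table (GRCm38.p6, 250 bases before to 50 after each start site) held 24 of the 35 genes with 31 promoters. The letters AGGAAG, the core of many ETS factor sites, were sought on both strands because Erg and Ets1 are ETS factors. They occurred in the promoters of 11 of 18 endothelial genes, 61.1%, against 38.4% of all genes in that table, and in none of the 6 mural genes in it. Counted per promoter, the shares were 52.0% of the endothelial and 35.4% of all promoters. The CArG box, the site of serum response factor in contractile genes, was found in Myl9 only among the members in that table. Of all genes in it, 1.81% held the box. The table held 2 of the 3 smooth muscle genes, so not all of them were searched. No member's promoters in it held both motifs. Motif letters are in capitals with 8 flanking bases, read along the strand that holds the motif, and these cases are shown because their genes carry the receptor and smooth muscle values above:
Flt1, chr5:147726051-147726072, gene on the minus strand: gccggggtAGGAAGtgggctgg
Eng, chr2:32646535-32646556, gene on the plus strand, motif on the opposite strand: gcgagtagAGGAAGtgccacag
Tie1, chr4:118490055-118490076, gene on the minus strand, motif on the opposite strand: ggaaagggAGGAAGccagtggc
Myl9 (CArG box), chr2:156775295-156775320, gene on the plus strand: agcagaggCCTAATAAGGccgggctg
A match of letters is a description of the sequence, and no binding was measured here.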

How the data were processed

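Hippocampal poly(A) RNA of 12 mice was sequenced by the authors with a stranded kit, aligned with TopHat 1.4.1 to NCBIM37/mm9 and counted per Ensembl gene with htseq-count (HTSeq 0.5.4p3). The deposited files hold these raw counts, with no normalization. Reads without a gene made up 11.5% to 13.9% of each library and were left out of library sizes.

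Gene IDs were matched to GENCODE vM1 (NCBIM37), which named 37205 of 37991. Counts were filtered (filterByExpr), scaled by TMM and tested over all genes with edgeR 4.0.16 (R 4.3.3) quasi-likelihood, label as the only term, at 1% FDR (Benjamini-Hochberg). SEs are the log2 fold change over the root of F. Log2 CPM used a prior count of 2. RPKM used the summed exon length. Alternatives were DESeq2 1.42.0, RLE factors, no filter, at least 10 reads in every library, 5% FDR, a block on replicate numbers, a spline offset for gene length (5 degrees of freedom) and leaving out each library. Exact permutation tests ran in Python 3.11.15.

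All members, Gadd45a, and in each further vascular list the genes past 1% FDR or otherwise the 3 lowest p values were named. Pde5a was named after its value was seen. The members and all lists were chosen with earlier results of these data known. On simulated data of 16433 tested genes, edgeR recovered 170 of 200 genes changed by 1 on the log2 scale, with 3 others. The largest log2 fold change of a member was 0.37, and recovery of changes of that size was not simulated. Libraries of one label differed by more than counting error (30 pairs, with a chi-square of 8.60 to 37.8 per degree of freedom).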

Additional observations from a re-analysis of the deposited data

Results flagged for a closer look

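In each of the 70 sets of 6 values (35 genes, 2 labels), the gap of the highest or lowest value to its neighbour was divided by the range and compared with Dixon's 95% limit for 6 values. This picked out 3 values, where 3.5 are expected by chance. Sox18 was 5.65 CPM in Wildtype replicate 1, above 2.83 to 3.82 CPM in the other Wildtype libraries. Rgs5 was 86.1 CPM in Wildtype replicate 1, below 100.5 to 108.6 CPM in the others. Kcnj8 was 2.83 CPM in Gadd45a-KO replicate 6, below 3.23 to 3.46 CPM in the other Gadd45a-KO libraries. For Sox18 and Rgs5 the library is one of the pair that held most of the members' lowest values.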

How the results depend on the processing

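No member passed 1% FDR under any alternative run, and 32 to 35 of the 35 fold changes kept their sign in each. At 5% FDR the members called were 0 in the unaltered edgeR fit, Pdgfrb in DESeq2 (adjusted p = 0.0475) and without Wildtype replicate 6 (0.0308), and Flt1 with replicate block and length offset (0.0316). Signs that turned belonged to genes near 0. The log2 fold change of Sox17 was 0.0059 with RLE factors, 0.0072 without a filter, 0.0078 with at least 10 reads in every library, 0.0061 in DESeq2, 0.0048 with the block and 0.0098 without the 2 libraries high in thalamic markers. Mfsd2a was -0.0013 with the length offset and -0.0033 with block and length offset, and Abcc9 0.0046 and 0.0037. Leaving out single libraries gave -0.052 to 0.041 for Sox17, -0.031 to 0.056 for Ly6c1, -0.076 to 0.017 for Abcc9 and -0.011 to 0.046 for Mfsd2a. Over all genes the counts at 1% FDR, 430 lower and 4 higher, became 664 and 20 in DESeq2, 272 and 9 with the length offset, 726 and 20 at 5% FDR and 239 to 467 lower without single libraries, with 239 to 276 where Wildtype replicate 3, 5 or 6 or Gadd45a-KO replicate 1, 2 or 6 was left out. They were 199 lower without the 2 thalamic-high libraries and 10 higher with block and length offset. Some of these runs had fewer samples, and the cause of the changes was not tested. Replicate numbers were not treated as pairs, because 1 of 6 same-number correlations of deviations was not over 0.1: they ran from -0.08 to 0.26 with a mean of 0.14, against -0.03 for different numbers, and only replicate 3 correlated best with its own number. Blocking on that number, 509 genes were lower and 5 higher, 0 of them members. In that fit 12 members were higher at an unadjusted p under 0.05, where 5.60% of all genes were. Counting error limits Icam2, Higd1b, Ctla2a and Kcnj8 most.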
